A study of Mus musculus with 9 samples.

Results

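The 10 genes described here mark monocytes and macrophages, and were taken as the rows of the deposited expression files whose symbol is Lyz2, Ly6c2, Plac8, Chil3, Cd14, Cd68, Adgre1, Itgam, Msr1 or Cd163. They are 10 of the 18639 gene entries in each file, and 9 of them passed the filter on low values, the exception being Cd163. RNA was sequenced from tissue of CT2A, a mouse glioma line grown in mouse brain, collected 5 days after the tumour had been resected. ThTC brains received CT2A cells that secrete interferon beta (IFNβ) and granulocyte-macrophage colony-stimulating factor (GM-CSF), GFP-TC brains received control cells, and sECM only brains received sECM without cells, an abbreviation the labels do not spell out. All 3 groups therefore shared the tumour line, the resection and the time point, and each held 3 libraries. The labels give no strain, age, sex or number of animals, and do not state whether replicate libraries stem from different animals. The p-values below therefore measure the spread between these libraries, which may be technical. The comparison of ThTC with GFP-TC sets cytokine-secreting against control cells, and both comparisons with sECM only set cells against no cells.

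Monocytes are blood cells made in the bone marrow that enter inflamed tissue and can mature there into macrophages, phagocytes that clear debris and present antigen. In mouse, the blood monocytes that enter inflamed tissue carry high surface Ly6C, and as they mature they lose it and gain F4/80, CD68 and scavenger receptors. The brain also holds its own macrophages, the microglia, which share Itgam, Adgre1, Cd68 and Cd14 with cells that arrive from blood. GM-CSF is a growth and activation factor for these lineages, and gliomas are known to hold large numbers of both.

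Expression was deposited as TPM, a transcript share that is corrected for gene length and scaled to a fixed total in each library. Levels can therefore be set side by side between genes. Between libraries they are compared as shares, so a rise of some genes lowers the rest. TPM keeps no sequencing depth, which is therefore unknown here, and no counting interval is given. In bulk tissue, fewer cells of a type and less RNA per cell cannot be told apart. The libraries differed in tissue makeup within each group. Summed TPM of 8 neuron markers ranged from 120 to 1297 in ThTC, from 83.7 to 1111 in GFP-TC and from 192 to 319 in sECM only libraries. Summed TPM of the 4 general leukocyte genes Ptprc, Coro1a, Laptm5 and Cd53 ranged from 505 to 740 in ThTC, from 215 to 635 in GFP-TC and from 354 to 500 in sECM only libraries. GFP-TC library 1 stood apart, with Ptprc, the common leukocyte antigen CD45, at 10.4 TPM, against 26.7 and 35.7 TPM in the other GFP-TC libraries and 16.4 to 34.0 TPM in the other groups. Differences between ThTC and GFP-TC of the 9 genes tested that move by more than 1.5 times without that library are given with their value without it.

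Levels of the 10 genes kept nearly the same order in every library. On the TPM scale, Lyz2 was highest, followed by Cd68, Ly6c2 and Plac8, in 9 of 9 libraries, and Cd163 was lowest in 9 of 9. Ranked by their mean over the 9 libraries among the 18639 entries, Lyz2 was at place 189, Cd68 at 641, Ly6c2 at 1119 and Plac8 at 2322. Itgam at place 3487 and Adgre1 at 3973 changed places between libraries, as did Msr1 at 6508, Cd14 at 6596 and Chil3 at 8073, so neighbours in those groups did not keep an order beyond their spread. Chil3 varied most, its highest library being 12.5 times its lowest, against 4.14 for Lyz2, 4.09 for Cd68 and 2.29 for Cd14. Cd163 was near the lower end of detection at place 15837.

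**Figure D1:**
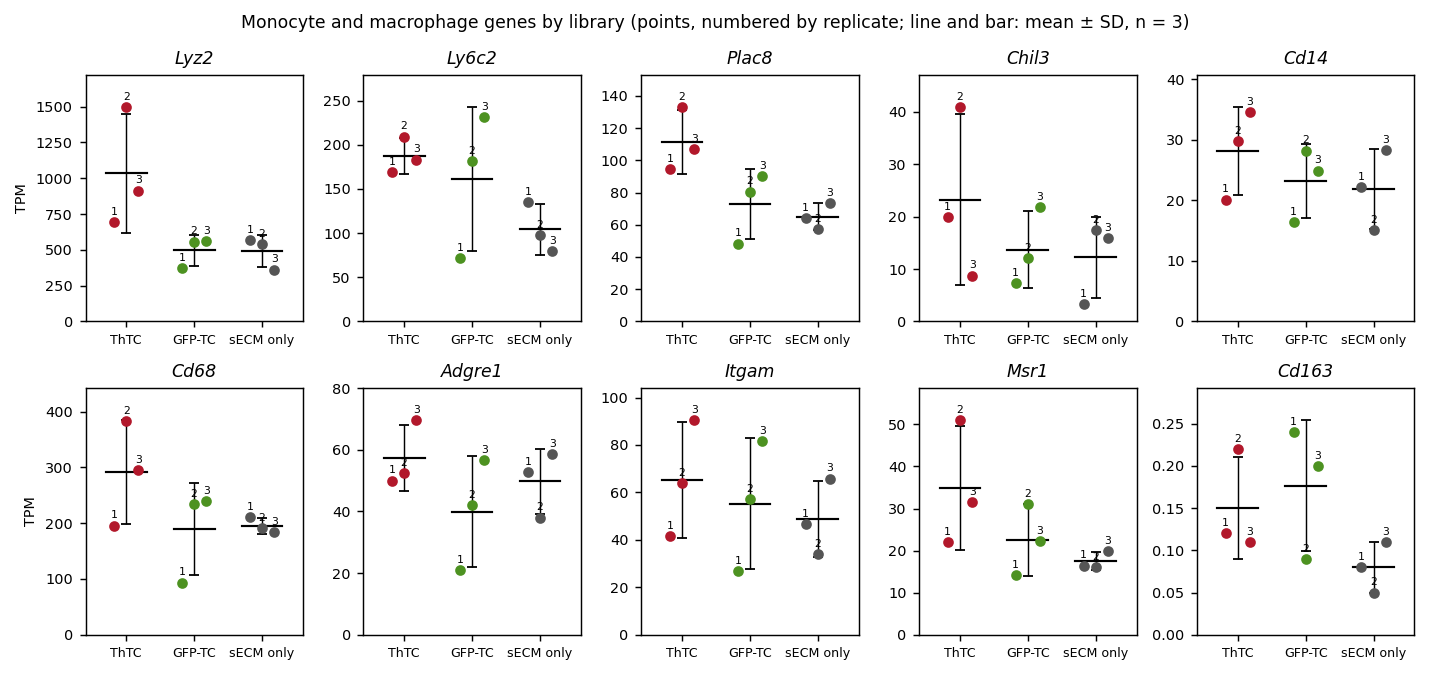
TPM of each of the 10 genes in every library, with ThTC left, GFP-TC in the middle and sECM only right. Points are libraries numbered by replicate, and the line and bar are the mean ± SD (n = 3). All 3 ThTC libraries lie above all other libraries for Lyz2, at 694 TPM or more, and for Plac8, at 94.3 TPM or more, while Cd163 stays at or under 0.24 TPM in every library.

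Among the genes of blood monocytes, Lyz2 and Plac8 were higher in every ThTC library than in any GFP-TC or sECM only library. Lyz2 encodes lysozyme M, the enzyme with which monocytes, macrophages and neutrophils break down bacterial cell walls. Lyz2 was at 694, 1499.6 and 914 TPM in ThTC libraries, against 373, 558 and 564 TPM in GFP-TC libraries and 569.7, 540.2 and 362 TPM in sECM only libraries. ThTC library 2 was the highest, and the GFP-TC and sECM only libraries covered nearly the same range. Its mean was 1036 ± 416 TPM in ThTC, 498 ± 109 TPM in GFP-TC and 491 ± 112 TPM in sECM only libraries (SD, n = 3 each). On the log2(TPM + 1) scale this is a difference of 1.01 ± 0.30 (SE) between ThTC and GFP-TC, with a 95% interval of 0.31 to 1.70, and of 1.03 ± 0.30 between ThTC and sECM only, with an interval of 0.34 to 1.72. Neither passed the adjustment over all genes tested (limma with Benjamini-Hochberg adjustment, adjusted p = 0.316 and 0.687, unadjusted p = 0.00973 and 0.00862).

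Lyz2 lies on chromosome 10 at 117277541 to 117282272 (GRCm38.p6), next to Lyz1 at 117287795 to 117292868, the lysozyme gene best known from Paneth cells of the mouse gut. The coding sequences of both are 447 bases long and differ at 22 positions, an identity of 95.1%. The first 150 coding bases of each, read from the GENCODE annotation of GRCm38, are shown because reads from identical stretches can be given to either gene, and capitals mark the 14 positions at which they differ.
Lyz2: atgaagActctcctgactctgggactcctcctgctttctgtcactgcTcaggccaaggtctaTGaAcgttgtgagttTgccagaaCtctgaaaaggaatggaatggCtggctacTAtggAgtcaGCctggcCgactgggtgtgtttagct
Lyz1: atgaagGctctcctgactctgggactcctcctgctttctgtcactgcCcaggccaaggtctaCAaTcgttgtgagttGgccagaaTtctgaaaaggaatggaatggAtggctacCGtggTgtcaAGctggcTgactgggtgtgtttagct
Of all 50-base windows of the Lyz2 transcript, 15.4% also occur in Lyz1, so part of either value may come from the other gene, depending on how multiply matching reads were handled, which is not given in the sources used here. Lyz1 was at 48.6, 106 and 59.0 TPM in ThTC libraries, against 31.1, 33.7 and 41.0 TPM in GFP-TC libraries and 41.8, 38.0 and 28.7 TPM in sECM only libraries. It followed Lyz2 closely, with the ratio of Lyz2 to Lyz1 at 14.1 to 15.5 in ThTC, 11.96 to 16.6 in GFP-TC and 12.6 to 14.2 in sECM only libraries. The log2 difference of Lyz1 was 0.92 for ThTC against GFP-TC (limma adjusted p = 0.316) and 0.89 for ThTC against sECM only (adjusted p = 0.687).

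Plac8 encodes a small cysteine-rich protein that is abundant in blood monocytes and also made by other leukocytes. It was at 94.3, 133 and 107 TPM in ThTC libraries, against 48.3, 80.6 and 90.0 TPM in GFP-TC libraries and 64.3, 57.3 and 73.6 TPM in sECM only libraries. Every ThTC library lay above every other library, though ThTC library 1 and GFP-TC library 3 were close. The log2 difference was 0.64 ± 0.23 (SE; 95% interval 0.11 to 1.17) for ThTC against GFP-TC, with an unadjusted p of 0.0228 and an adjusted p of 0.316 (limma), and was 0.37 without GFP-TC library 1. For ThTC against sECM only it was 0.76 ± 0.23 (0.23 to 1.29), with an unadjusted p of 0.00999 and an adjusted p of 0.687 (limma).

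Ly6c2 encodes the glycolipid-anchored surface protein whose epitope, Ly6C, is used to sort inflammatory monocytes in mouse, and it is also made by some T cells. Ly6c2 was at 169, 209 and 183 TPM in ThTC libraries, against 71.4, 181 and 231 TPM in GFP-TC libraries and 135, 97.9 and 79.3 TPM in sECM only libraries. The ThTC libraries lay above all sECM only libraries but inside the range of the GFP-TC libraries, whose lowest and highest values differed by more than those of any other group. The log2 difference was 0.37 ± 0.39 (SE) for ThTC against GFP-TC (limma adjusted p = 0.686; -0.14 without GFP-TC library 1 and 0.71 without GFP-TC library 3) and 0.87 ± 0.39 for ThTC against sECM only (limma adjusted p = 0.687, unadjusted p = 0.0566). Ly6c1, the neighbouring gene that endothelial cells also make, shares 32.6% of the 50-base windows of Ly6c2. Ly6c1 was at 49.1, 75.2 and 108 TPM in ThTC libraries, against 24.3, 42.8 and 73.3 TPM in GFP-TC libraries and 38.9, 32.0 and 42.8 TPM in sECM only libraries. The ratio of Ly6c2 to Ly6c1 ranged from 1.69 to 3.44 in ThTC, from 2.94 to 4.23 in GFP-TC and from 1.85 to 3.48 in sECM only libraries, so these neighbours varied more independently than Lyz2 and Lyz1 did.

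Promoters are shown for Lyz2 and Plac8, the genes without overlap in both ThTC comparisons, and for Ly6c2, the marker used to sort monocytes. They are from the RefSeq promoter table of GRCm38.p6, cover 250 bases before and 50 bases after the start, and lie on the minus strand at chr10:117282223-117282522, chr5:100572156-100572455 and chr15:75111922-75112221. Capitals mark the letters GGAAGT on either strand, the core recognised by the ETS family, to which the monocyte and macrophage factor PU.1 belongs.
Lyz2 promoter: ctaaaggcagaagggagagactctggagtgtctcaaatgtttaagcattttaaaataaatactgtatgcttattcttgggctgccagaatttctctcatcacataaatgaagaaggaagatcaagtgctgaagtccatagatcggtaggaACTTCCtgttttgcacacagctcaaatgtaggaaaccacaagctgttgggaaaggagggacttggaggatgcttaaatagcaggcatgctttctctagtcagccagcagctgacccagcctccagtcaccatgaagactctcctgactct
Plac8 promoter: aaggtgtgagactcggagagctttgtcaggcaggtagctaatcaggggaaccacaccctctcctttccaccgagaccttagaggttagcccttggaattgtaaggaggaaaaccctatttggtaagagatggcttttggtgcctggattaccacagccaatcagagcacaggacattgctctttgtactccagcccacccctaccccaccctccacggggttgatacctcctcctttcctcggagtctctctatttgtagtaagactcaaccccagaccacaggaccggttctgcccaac
Ly6c2 promoter: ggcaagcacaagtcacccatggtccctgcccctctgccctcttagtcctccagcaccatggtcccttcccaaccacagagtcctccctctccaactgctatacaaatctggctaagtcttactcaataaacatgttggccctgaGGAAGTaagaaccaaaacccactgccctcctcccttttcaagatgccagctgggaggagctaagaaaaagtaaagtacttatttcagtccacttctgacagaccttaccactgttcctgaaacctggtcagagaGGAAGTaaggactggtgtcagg
The core occurred once in the Lyz2 window, not in the Plac8 window and more than once in the Ly6c2 window. Of all 32851 promoter windows of the table, 23.8% hold it on either strand. Of the set, 7 genes were counted, and 4 of them hold it, Lyz2, Ly6c2, Cd68 and Chil3. Counted by window, as the share of all windows is, 5 of the 9 windows of these 7 genes hold it. Adgre1 and Msr1 are not in the table, and Cd14 was left out of the count. The longer PU.1 motif GAGGAAGT, which contains the core, is in 3.20% of all windows and in 2 of the 9 windows counted. Both are windows of Ly6c2 that overlap, so the motif is in 1 of the 7 genes. These are matches of letters within these windows only.

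Chil3 encodes a secreted chitinase-like protein, Ym1, made in mouse by some monocytes, neutrophils and alternatively activated macrophages. Chil3 was at 19.9, 41.0 and 8.75 TPM in ThTC libraries, against 7.26, 12.1 and 21.8 TPM in GFP-TC libraries and 3.28, 17.4 and 16.0 TPM in sECM only libraries. All 3 groups overlapped, and its spread within a group was wider than its differences between groups. The log2 difference was 0.60 for ThTC against GFP-TC, with a 95% interval of -0.998 to 2.19, and 0.89 for ThTC against sECM only, with an interval of -0.70 to 2.49. Single libraries decided these values: against GFP-TC the difference was 0.080 without ThTC library 2, 0.24 without GFP-TC library 1, 0.97 without GFP-TC library 3 and 1.13 without ThTC library 3. Against sECM only it was 0.21 without sECM only library 1, 0.38 without ThTC library 2 and 1.43 without ThTC library 3. Its neighbour Chil4, which shares 18.5% of the 50-base windows of Chil3, was listed at 0 in 8 libraries and at 0.08 TPM in sECM only library 3.

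Cd14 encodes the surface protein that hands bacterial lipopolysaccharide to its receptor, and Itgam encodes CD11b, the alpha chain of a complement receptor and adhesion integrin of monocytes, macrophages, microglia and neutrophils. Cd14 was at 20.1, 29.7 and 34.5 TPM in ThTC libraries, against 16.4, 28.2 and 24.9 TPM in GFP-TC libraries and 22.2, 15.1 and 28.3 TPM in sECM only libraries. Itgam was at 41.6, 64.0 and 90.5 TPM in ThTC libraries, against 26.8, 57.3 and 81.8 TPM in GFP-TC libraries and 46.6, 34.1 and 65.9 TPM in sECM only libraries. The groups overlapped for both genes. In the ThTC and GFP-TC groups, library 1 was the lowest for both, and for Itgam library 3 was the highest in all 3 groups. The log2 difference for ThTC against GFP-TC was 0.27 for Cd14 (limma adjusted p = 0.688) and 0.31 for Itgam (adjusted p = 0.785). Without GFP-TC library 1 these were 0.049 for Cd14 and -0.14 for Itgam, and with each library left out in turn they ranged from 0.049 to 0.48 for Cd14 and from -0.14 to 0.65 for Itgam. For ThTC against sECM only it was 0.36 for Cd14 (limma adjusted p = 0.753) and 0.39 for Itgam (adjusted p = 0.823), with ranges of 0.13 to 0.57 for Cd14 and 0.13 to 0.68 for Itgam when each library was left out. Exons of Itgam share 3450 bases with a gene model on the same strand, Gm49368, which has no entry in the files, and how reads in shared exons were counted is not given in the sources used here.

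Of the genes of mature macrophages, Cd68 encodes a heavily glycosylated lysosomal membrane protein, Adgre1 the adhesion receptor F4/80, and Msr1 and Cd163 scavenger receptors for modified lipoproteins and for haemoglobin bound to haptoglobin. Cd68 was at 196, 383 and 296 TPM in ThTC libraries, against 93.6, 235 and 239 TPM in GFP-TC libraries and 211, 192 and 184 TPM in sECM only libraries. ThTC libraries 2 and 3 were above all others, and GFP-TC library 1 was far below all others. The log2 difference was 0.69 ± 0.37 (SE) for ThTC against GFP-TC (limma adjusted p = 0.388) and 0.52 ± 0.37 for ThTC against sECM only (adjusted p = 0.725). The difference from GFP-TC was 0.25 without GFP-TC library 1, and that from sECM only was 0.30 without ThTC library 2.

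Adgre1 was at 50.04, 52.3 and 69.7 TPM in ThTC libraries, against 21.0, 42.2 and 56.6 TPM in GFP-TC libraries and 52.6, 38.0 and 58.6 TPM in sECM only libraries. The ThTC and sECM only ranges overlapped widely, and GFP-TC library 1 was again the lowest. The log2 difference was 0.60 ± 0.33 (SE) for ThTC against GFP-TC (limma adjusted p = 0.400), 0.21 ± 0.33 for ThTC against sECM only (adjusted p = 0.878) and -0.40 ± 0.33 for GFP-TC against sECM only (adjusted p = 0.997). The first was 0.21 and the last -0.0020 without GFP-TC library 1. That between ThTC and sECM only was 0.030 without sECM only library 2, 0.063 without ThTC library 3 and 0.34 without sECM only library 3.

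Msr1 was at 22.1, 51.0 and 31.6 TPM in ThTC libraries, against 14.2, 31.1 and 22.3 TPM in GFP-TC libraries and 16.4, 16.1 and 19.9 TPM in sECM only libraries. Every ThTC library lay above every sECM only library, while ThTC and GFP-TC libraries overlapped. The log2 difference was 0.60 ± 0.33 (SE) for ThTC against GFP-TC (limma adjusted p = 0.405) and 0.88 ± 0.33 for ThTC against sECM only (limma adjusted p = 0.687, unadjusted p = 0.0277). Without ThTC library 2 these were 0.29 and 0.58, and without GFP-TC library 1 the difference from GFP-TC was 0.31. Relative to Adgre1, Msr1 was at a ratio of 0.44 to 0.97 in ThTC, 0.39 to 0.74 in GFP-TC and 0.31 to 0.42 in sECM only libraries.

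Cd163 was at 0.12, 0.22 and 0.11 TPM in ThTC libraries, against 0.24, 0.09 and 0.20 TPM in GFP-TC libraries and 0.08, 0.05 and 0.11 TPM in sECM only libraries. No library reached the filter of 1 TPM, so the gene was compared alone by an exact two-sided permutation test, which cannot give a p under 0.1 with 3 libraries against 3. The exact p was 0.9 between ThTC and GFP-TC libraries, and 0.2 when either was set against sECM only libraries.

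For ThTC against GFP-TC, 9 of the 9 genes tested had a higher mean log2 level in ThTC libraries, as did 33.8% of all 13829 genes tested. Their median log2 difference was 0.60, against -0.10 for all genes tested. Under median-of-ratios scaling the median of all genes moved by 0.13 and that of the 9 genes was 0.73. After adjustment, limma called 0 of the 9 and 0.0% of all genes. At an unadjusted p under 0.05, 2 of the 9 were higher, Lyz2 and Plac8, against 2.03% of all genes. The same 2 genes had no overlap between the groups, against 2.2% of all genes higher without overlap. Replicates with the same number in ThTC and GFP-TC libraries deviated together across genes, though weakly for number 2, where ThTC library 2 was more like GFP-TC library 1 (correlation 0.38) than like GFP-TC library 2 (0.12). Taken as pairs, they left 7 of the 9 genes higher in ThTC in each of the 3 pairs, the exceptions being Ly6c2 and Chil3, and 12% of all genes. With the replicate number as a block over these 6 libraries, limma called 0 of the 9 genes and 8 of all genes, or 0.0578%, and the adjusted p of Lyz2 was 0.0568. This pairing was chosen from the same values and is not given by the labels. Without GFP-TC library 1, the median of the 9 genes was 0.24 and 7 of 9 were higher in ThTC, with Ly6c2 and Itgam at -0.14 each, while the median of all genes was -0.21. Without ThTC library 2 the median was 0.29, and Lyz2 stood at 0.70. Without ThTC library 1, 5 of the 9 genes had no overlap, against 6.96% of all genes in the same 5 libraries.

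**Figure D2:**
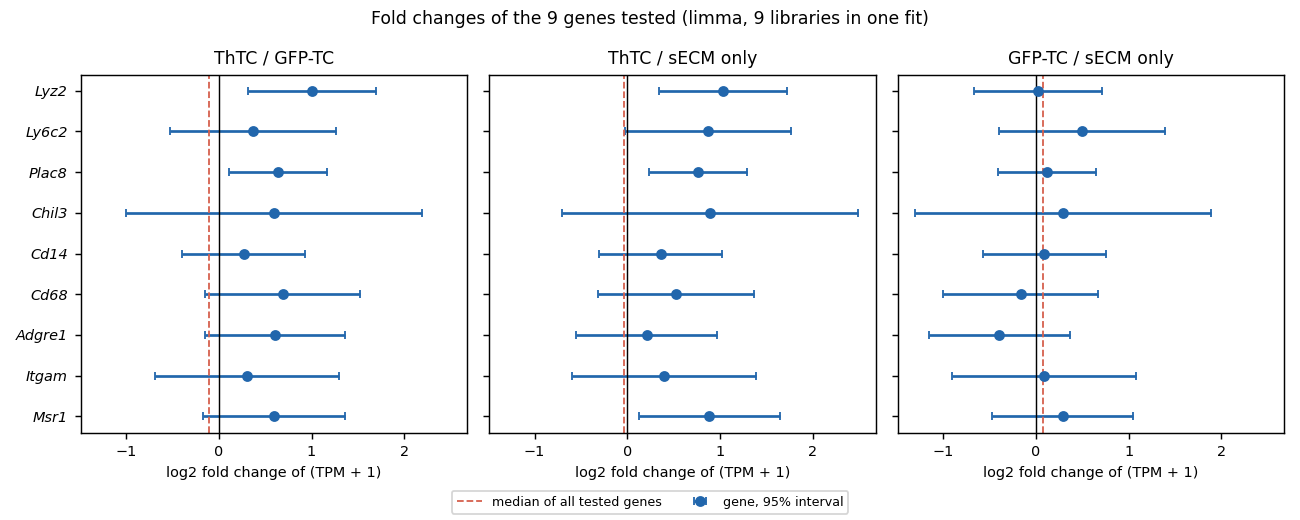
Difference in mean log2(TPM + 1) of the 9 genes tested, with 95% intervals from limma, for ThTC against GFP-TC (left), ThTC against sECM only (middle) and GFP-TC against sECM only (right). The dashed line is the median of all 13829 genes tested. The intervals of Lyz2 and Plac8 lie above 0 in both ThTC comparisons and that of Msr1 in the comparison with sECM only, before adjustment, while every interval spans 0 on the right.

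For ThTC against sECM only, 9 of 9 genes again had a higher mean in ThTC libraries, as did 44.4% of all genes tested, and the median log2 difference was 0.76, against -0.032 for all genes. The ThTC libraries are the same as in the comparison with GFP-TC, so the comparisons are not independent. limma called 0 of the 9 and 0.0% of all genes after adjustment. At an unadjusted p under 0.05, 3 of the 9 were higher, Lyz2, Plac8 and Msr1, against 1.54% of all genes. Lyz2, Plac8, Ly6c2 and Msr1 had no overlap between the groups, 4 of 9 against 5.03% of all genes. The median of the 9 genes lay between 0.38, without ThTC library 2, and 0.87, without ThTC library 1, when each library was left out in turn, with 9 of 9 higher each time.

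For GFP-TC against sECM only, 7 of 9 genes had a higher mean in GFP-TC libraries, close to the 71.8% of all genes tested, and the median log2 difference was 0.091, against 0.077 for all genes. limma called 0 of the 9 genes and 0.0% of all genes, and 0 of the 9 were higher at an unadjusted p under 0.05, against 0.499% of all genes. None of the 9 was without overlap, against 3.15% of all genes higher without overlap. The differences ranged from -0.40 for Adgre1 to 0.50 for Ly6c2, with Lyz2 at 0.02 and a 95% interval of -0.67 to 0.72. The direction of 6 genes here turned when single libraries were left out, and those of Lyz2, Itgam and Cd14 turned with the scaling. Without GFP-TC library 1, the median of the 9 genes was 0.39 and that of all genes 0.16, and 4 of the 9 had no overlap, as did 31.7% of all genes. Ly6c2 then stood at 1.002 and Lyz2 at 0.22.

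Across the 9 libraries the genes did not move as 1 block. ThTC library 2 was the highest for Lyz2, Plac8, Chil3, Cd68 and Msr1, ThTC library 3 for Cd14, Adgre1 and Itgam, and GFP-TC library 3 for Ly6c2. GFP-TC library 1 was the lowest for 6 genes and among the 3 lowest for all 9. As a description over 9 libraries that share tissue makeup, the closest pairs by Pearson r were Plac8 with Msr1 (Pearson r 0.91, Spearman rho 0.93), Cd14 with Itgam (0.90 and 0.87) and Plac8 with Cd68 (0.88 and 0.83). By Spearman rho, Ly6c2 with Cd68 was as close as Plac8 with Msr1, at 0.93, followed by Cd68 with Msr1 and Adgre1 with Itgam at 0.90. The least alike by r were Chil3 with Cd14 (0.16 and 0.13), Chil3 with Adgre1 (0.20 and 0.050) and Chil3 with Itgam (0.26 and 0.23), and Lyz2 with Itgam was at 0.42 and 0.35.

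**Figure D3:**
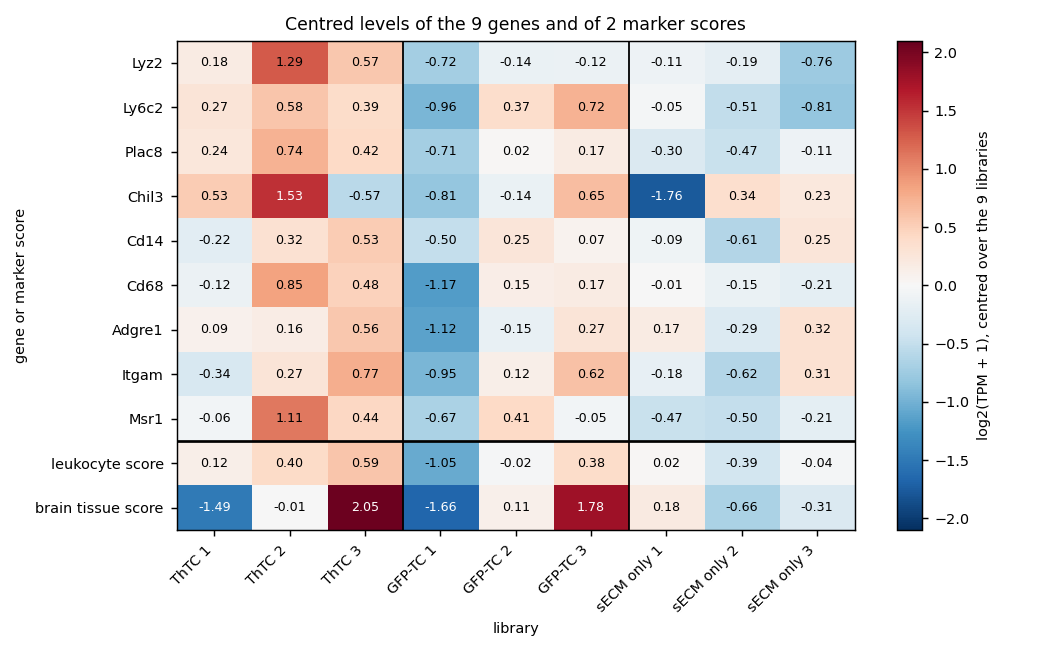
log2(TPM + 1) of the 9 genes in each library minus the gene's mean over the 9 libraries, with a leukocyte and a brain tissue marker score below the line. Libraries run from ThTC on the left through GFP-TC to sECM only on the right. GFP-TC library 1 is low for every gene, down to -1.17 for Cd68, and its leukocyte score is -1.05, while ThTC library 2 reaches 1.29 for Lyz2 and 1.53 for Chil3.

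To compare monocyte with macrophage genes within a library, the mean log2 level of Cd68, Adgre1 and Msr1 was subtracted from that of Ly6c2, Plac8 and Chil3. This balance was 0.18, 0.051 and -0.61 in ThTC libraries, against -0.034, -0.25 and 0.19 in GFP-TC libraries and -0.79, -0.092 and -0.39 in sECM only libraries. The groups overlapped, and the low values in ThTC library 3 and sECM only library 1 went with low Chil3. Without Chil3, the balance was 1.05, 0.72 and 0.68 in ThTC libraries, against 0.92, 0.82 and 1.08 in GFP-TC libraries and 0.70, 0.59 and 0.34 in sECM only libraries. All GFP-TC libraries were then above all sECM only libraries, and ThTC libraries spanned from just under the highest sECM only library to near the highest GFP-TC library. This form of the balance was added after its values were seen, and neither was tested.

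For each gene, the 3 most alike of 11193 other genes averaging 5 TPM or more were taken by Pearson r over the 9 libraries, as a description with no p. Being picked for r among so many genes, their r is high by selection, and their Spearman rho ranged from 0.82 to 1.0. Their levels moved by unlike amounts, from 29.15 to 33.9 TPM for Crot and from 312 to 396 TPM for Capzb, but from 7.78 to 30.4 TPM for Acod1. Lyz2 was nearest to Capzb (0.98), Lyz1 (0.98) and Tmem86a (0.96), and Ly6c2 to Acod1 (0.97), the itaconate-producing enzyme of activated macrophages, Itgb7 (0.95) and Sharpin (0.95). Plac8 was nearest to Casp12 (0.98), Milr1 (0.97) and the interferon-inducible GTPase gene Ifi47 (0.97). Cd68 was nearest to Ripk3 (0.98), Cndp2 (0.97) and the lysosomal protease gene Lgmn (0.97), and Msr1 to Crot (0.97), Sqor (0.97) and Aldh3b1 (0.96). Adgre1 was nearest to Pld4, Syk and P2rx4 (0.98 to 0.99), Itgam to Cebpd, Maf and Tox4 (0.98 to 0.99), and Cd14 to Atf3, Akr1b10 and Bet1 (0.96 to 0.97). Chil3 had no neighbour above 0.87, the value of Ppcs, followed by Nrbf2 and Dusp19 at 0.84.

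Several of these genes are made by other cell types whose markers also varied between groups. Of all genes tested, 33.8% had a higher mean in ThTC than in GFP-TC libraries. Of 7 T cell markers, 7 did, with a median log2 difference of 1.08. Their summed levels were 83.6 to 94.98 TPM in ThTC, 7.53 to 75.6 TPM in GFP-TC and 22.2 to 82.7 TPM in sECM only libraries. The lowest of these was GFP-TC library 1, with the other GFP-TC libraries at 62.7 and 75.6 TPM. Of 9 microglia markers, 7 had a higher mean in ThTC than in GFP-TC libraries, with a median log2 difference of 0.51. Their sums were 455 to 880 TPM in ThTC, 323 to 679 TPM in GFP-TC and 412 to 492 TPM in sECM only libraries. Of 13 neutrophil markers 7 lay under the filter, and 5 of the 6 tested had a higher mean in ThTC than in GFP-TC. The median log2 difference of the 6 was 0.29. Sums over the 13 were 34.1 to 46.9 TPM in ThTC, 23.6 to 52.6 TPM in GFP-TC and 37.7 to 60.4 TPM in sECM only libraries. Within that list, Ly6g was listed at 0 in 8 libraries and at 0.12 TPM in ThTC library 2, and S100a8 was at most 3.75 TPM. S100a9 was at 1.60 to 3.10 TPM in ThTC, 0.79 to 2.92 TPM in GFP-TC and 0.24 to 0.52 TPM in sECM only libraries, a log2 difference of 1.25 for ThTC against sECM only (limma adjusted p = 0.687, unadjusted p = 0.00400). Retnlg was higher in every sECM only library than in any other, at 0.55 to 1.53 TPM in ThTC, 0.44 to 0.78 TPM in GFP-TC and 8.28 to 23.5 TPM in sECM only libraries, and Csf3r and Mmp9 reached 27.8 and 24.1 TPM. Of 9 border-associated macrophage markers 8 were tested, and 7 had a higher mean in ThTC than in GFP-TC libraries, with a median log2 difference of 0.60. Their sums were 121.9 to 205 TPM in ThTC, 73.8 to 116 TPM in GFP-TC and 105 to 135 TPM in sECM only libraries. Of 5 NK cell markers 5 had a higher mean in ThTC than in GFP-TC, with a median log2 difference of 0.36. Their sums were 13.01 to 14.8 TPM in ThTC, 4.5 to 14.7 TPM in GFP-TC and 6.83 to 12.1 TPM in sECM only libraries. GFP-TC library 1 was also the lowest for the microglia, border-associated macrophage and NK cell sums. The other GFP-TC libraries were at 515 and 679 TPM, 109 and 116 TPM, and 10.04 and 14.7 TPM for these lists. The medians of these lists and of the T cell list against GFP-TC thus lean in part on that library. Medians without it are not given. Of 5 red cell markers 5 had a lower mean in ThTC than in GFP-TC, with a median of -1.15 and sums of 147 to 524 TPM in ThTC, 186 to 1206 TPM in GFP-TC and 368 to 704 TPM in sECM only libraries. Of 6 endothelial markers, which include Ly6c1, 3 had a higher mean in ThTC than in GFP-TC, with a median log2 difference of 0.087. Their sums were 122.9 to 255 TPM in ThTC, 104 to 187 TPM in GFP-TC and 136 to 154 TPM in sECM only libraries. Against GFP-TC, 3 of 6 conventional dendritic cell, 2 of 5 fibroblast and 3 of 4 B and plasma cell markers tested were higher. The medians of these lists were 0.019, -0.21 and 0.23. limma called 0 markers of these lists in each ThTC comparison, and the part of these cell types in the results above was not tested.

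With the leukocyte score, the mean centred log2 level of Ptprc, Coro1a, Laptm5 and Cd53, as a covariate in the fit, the median of the 9 genes was 0.10 for ThTC against GFP-TC and 0.33 for ThTC against sECM only. This covariate was added after the values were seen. Its 4 genes themselves had a higher mean in ThTC than in GFP-TC libraries, with a median log2 difference of 0.62. Over the 9 libraries the score had a Pearson r of 0.34 with Chil3 to 0.94 with Adgre1. The fit therefore also takes out differences that the 9 genes share with the score, and a turned direction is relative to it. For ThTC against GFP-TC, Lyz2 then stood at 0.75 (95% interval 0.024 to 1.47, limma adjusted p = 0.170) and Plac8 at 0.27 (-0.055 to 0.59, limma adjusted p = 0.222). Adgre1 stood at 0.0088, and Ly6c2 at -0.27, Cd14 at -0.12 and Itgam at -0.44 had turned direction. For ThTC against sECM only, Lyz2 stood at 0.81 (0.12 to 1.503), Plac8 at 0.45 (0.14 to 0.76) and Msr1 at 0.58 (-0.12 to 1.29), and Adgre1 at -0.29 and Itgam at -0.23 had turned direction. With the brain tissue score as the covariate instead, Lyz2 stood at 0.99 and 0.97 and Plac8 at 0.62 and 0.70 in the comparisons with GFP-TC and sECM only. Against sECM only, Adgre1 then stood at 0.086, against 0.21 without the covariate, and Itgam at 0.22, against 0.39 without it. With either covariate, limma called 0 of the 9 genes. Of all genes it called 0.0% with the leukocyte score in both comparisons, and with the brain tissue score 0.0% for ThTC against GFP-TC and 0.0145% for ThTC against sECM only.

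**Figure D4:**
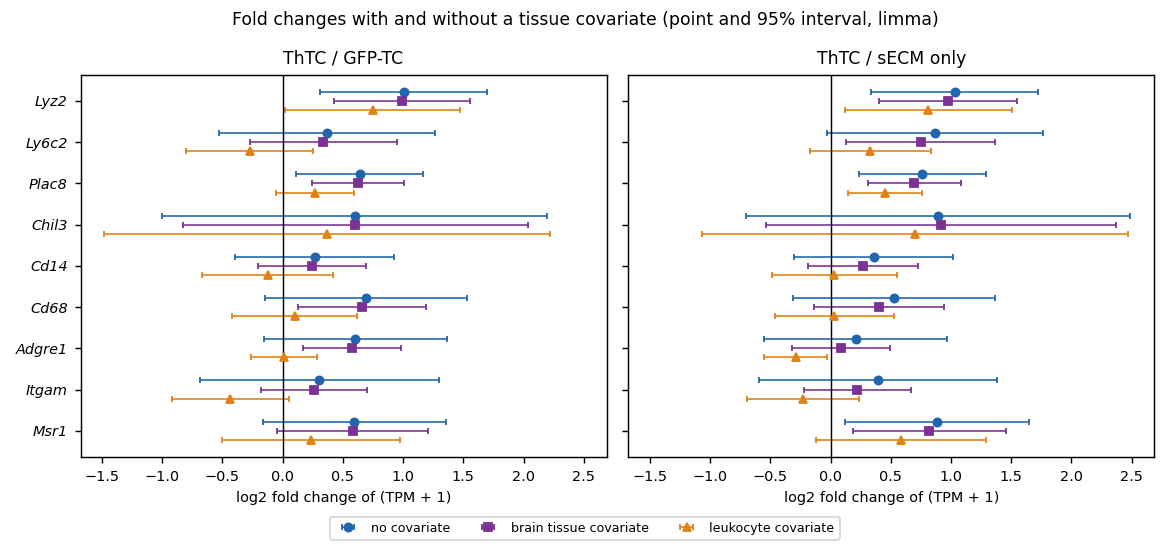
Difference in mean log2(TPM + 1) of the 9 genes with 95% intervals from limma, for ThTC against GFP-TC (left) and against sECM only (right). Circles have no covariate, squares the brain tissue score and triangles the leukocyte score. Squares lie near the circles on the left, and on the right lie lower for Adgre1 (0.086) and Itgam (0.22). Triangles lie lower than circles for all 9 genes in both panels, down to -0.44 for Itgam on the left, and Lyz2 stays above 0 at 0.75 and 0.81.

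Other genes of monocyte and macrophage function were taken as 61 genes in lists by role, of which 56 passed the filter. limma called 0 of the 56 in each comparison. For ThTC against GFP-TC 48 of 56 had a higher mean, with a median log2 difference of 0.43, and for ThTC against sECM only 47 of 56, with a median of 0.38. For GFP-TC against sECM only it was 30 of 56, with a median of 0.015. Of all genes tested, 33.8%, 44.4% and 71.8% had a higher mean in these comparisons, with medians of -0.10, -0.032 and 0.077. The share of the 56 was thus above that of all genes in both ThTC comparisons and below it between GFP-TC and sECM only. GFP-TC library 1 was the lowest for many of these genes, and counts and medians without it are not given for these lists. Without overlap, 3 of the 56 were higher in ThTC than in GFP-TC and 17 were higher in ThTC than in sECM only libraries, against 2.2% and 5.03% of all genes.

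Among ligands and receptors of the colony-stimulating factors, 6 of 6 had a higher mean in ThTC in both comparisons, with medians of 0.36 against GFP-TC and 0.34 against sECM only. Csf1r, the receptor on which macrophage survival depends, was at 162 ± 50.4 TPM in ThTC, 129 ± 71.2 TPM in GFP-TC and 120 ± 15.3 TPM in sECM only libraries (SD, n = 3 each). Csf2rb, the signalling chain of the GM-CSF receptor, was at 23.0 ± 5.25 TPM in ThTC, 19.3 ± 11.2 TPM in GFP-TC and 19.5 ± 2.11 TPM in sECM only libraries. Both ranges overlapped between all groups. GFP-TC library 1 was the lowest for both, at 54.1 TPM for Csf1r and 6.96 TPM for Csf2rb. The other GFP-TC libraries were at 137 and 196 TPM for Csf1r and at 22.3 and 28.7 TPM for Csf2rb. Csf1 was at 50.4 TPM in GFP-TC library 1, and at 95.2 and 96.0 TPM in the others, above all ThTC libraries, whose highest was 92.4 TPM. The count of 6 of 6 against GFP-TC thus leans on that low library.

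Recruitment and adhesion genes had a higher mean in ThTC for 9 of 10 against GFP-TC, with a median of 0.45, and for 10 of 10 against sECM only, with a median of 0.57. Ccl2, the main chemokine for monocytes, was at 128 ± 29.1 TPM in ThTC, 113 ± 5.67 TPM in GFP-TC and 94.5 ± 17.0 TPM in sECM only libraries. Its receptor Ccr2 was at 14.0, 13.1 and 12.7 TPM in ThTC libraries, against 4.63, 12.9 and 12.8 TPM in GFP-TC libraries and 9.72, 7.23 and 9.69 TPM in sECM only libraries. Ccr2 was thus above every sECM only library in all 3 ThTC libraries and overlapped with GFP-TC, the pattern also seen for Ly6c2 and Msr1. Itgb2, the beta chain that pairs with Itgam, was at 104 ± 33.4 TPM in ThTC, 69.7 ± 37.9 TPM in GFP-TC and 66.3 ± 14.7 TPM in sECM only libraries.

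Genes of the phagocyte oxidase and the lysosome had a higher mean in ThTC for 9 of 9 in both comparisons, with medians of 0.62 against GFP-TC and 0.55 against sECM only. Cyba, the small membrane subunit of the oxidase, was at 221, 389 and 315 TPM in ThTC libraries, against 84.7, 148 and 199.8 TPM in GFP-TC libraries and 213, 154 and 152 TPM in sECM only libraries. Every ThTC library was above every other library, as for Lyz2 and Plac8, and the log2 difference against GFP-TC was 1.14 ± 0.32 (SE, limma adjusted p = 0.316). Ncf4, a cytosolic subunit, was at 37.1 ± 2.23 TPM in ThTC, 24.8 ± 8.45 TPM in GFP-TC and 25.3 ± 5.21 TPM in sECM only libraries.

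Of 11 scavenger receptor and haemoglobin uptake genes 9 were tested, and 7 had a higher mean in ThTC in either comparison, with medians of 0.31 against GFP-TC and 0.34 against sECM only. Cd36, a receptor for oxidised lipoproteins, was at 4.58, 17.8 and 10.5 TPM in ThTC libraries, against 1.62, 8.54 and 5.79 TPM in GFP-TC libraries and 4.13, 3.02 and 1.89 TPM in sECM only libraries. Its log2 difference was 1.44 ± 0.56 (SE) for ThTC against sECM only (limma adjusted p = 0.687, unadjusted p = 0.0310). Mrc1, the mannose receptor of tissue macrophages, had a lower mean than in sECM only libraries, at 8.76, 2.98 and 4.15 TPM in ThTC libraries, 2.21, 5.48 and 4.01 TPM in GFP-TC libraries and 8.35, 12.9 and 18.4 TPM in sECM only libraries. ThTC library 1 lay inside the sECM only range, while all GFP-TC libraries lay below it. Its log2 difference was -1.22 ± 0.41 for ThTC against sECM only (limma adjusted p = 0.687) and -1.53 ± 0.41 for GFP-TC against sECM only (limma adjusted p = 0.997).

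Of 10 transcription factors of the lineage, 8 had a higher mean in ThTC against GFP-TC and 7 against sECM only, with medians of 0.37 and 0.25. Irf8, needed for monocyte development, was at 70.6 ± 13.7 TPM in ThTC, 54.1 ± 23.95 TPM in GFP-TC and 45.7 ± 7.05 TPM in sECM only libraries. Klf4, needed in mouse for Ly6C-high monocytes, had a lower mean, at 81.7 ± 18.5 TPM in ThTC, 111 ± 25.8 TPM in GFP-TC and 109 ± 11.6 TPM in sECM only libraries, with log2 differences of -0.44 and -0.43 for ThTC against GFP-TC and sECM only. The 6 partners of Cd14 in lipopolysaccharide sensing were nearest to no difference, with medians of 0.078 and 0.13 for ThTC against GFP-TC and sECM only, and Tlr2 was at 41.8 ± 11.6 TPM in ThTC, 34.4 ± 13.3 TPM in GFP-TC and 30.6 ± 6.54 TPM in sECM only libraries. Of 12 paralogues and family partners 9 were tested, with medians of 0.67 and 0.61, among them Ly6a, a relative of Ly6c2, at 372 ± 108 TPM in ThTC, 175 ± 97.4 TPM in GFP-TC and 149 ± 51.3 TPM in sECM only libraries.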

How the data were processed

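RNA from the tissue was isolated on columns and read on the DNBseq platform, as the labels' protocols state. The authors deposited TPM per gene, rounded to 2 decimals. HISAT, GRCm38.p6 and mm10 are named in the submitters' processing notes; which tool and annotation gave the TPM is not given in the sources used here. The unit sums to a fixed total, so a rise of some genes lowers the rest, and depth is unknown.

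Values were analysed as log2(TPM + 1), which understates changes at low levels. The 13829 genes reaching 1 TPM in 3 or more libraries were fitted with limma 3.58.1 in R 4.3.3, with an intensity trend and all 9 libraries in one model, adjusted by Benjamini-Hochberg over all genes tested at a threshold of 0.05, two-sided. The fit was first run on simulated data with independent noise for each gene, without shared tissue makeup or an outlying library. That run therefore does not show how the fit behaves under such differences. Cd163 was compared by an exact two-sided permutation test. Positions are from RefSeq, GRCm38.p6.

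The genes and lists were chosen with earlier results of these data known. All 10 genes are named in every comparison; of each related list, the rule took per comparison called genes, otherwise up to 2 with the smallest p averaging 5 TPM or more, and examples were drawn from these. Lyz1, Ly6c1, Chil4 and defining markers were named whatever their values, and Coro1a, Laptm5, Cd53, Gm49368, Retnlg, Csf3r and Mmp9 were named outside the rule, after their values were seen. The brain tissue score is the mean centred log2 level of 15 neuron and oligodendrocyte markers, and the leukocyte score that of 4 leukocyte genes.

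Pairing was checked by correlating deviations from group means of same-numbered libraries. ThTC with GFP-TC gave 0.74, 0.12 and 0.87, so they were also treated as pairs, although the meaning of the numbers is not labelled. The pairing was thus chosen from the same data. Brain tissue scores also ran alike by number, at -1.49, -0.0067 and 2.05 in ThTC and -1.66, 0.11 and 1.78 in GFP-TC libraries. Deviations from a mean of 3 libraries sum to 0, so these correlations are not independent of each other. ThTC with sECM only gave -0.55, 0.28 and -0.21, and GFP-TC with sECM only -0.53, -0.14 and -0.19.

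Alternatives were other pseudocounts (0.1 and 0.5), filters, scalings, covariates, a replicate block and leaving out each library.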

Additional observations from a re-analysis of the deposited data

How the results depend on the processing

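Over 567 refits of single-gene values (9 genes, 3 comparisons, every alternative run with limma), 0 passed the threshold, with adjusted p between 0.0568 and 1, 543 kept their direction and 24 turned. Many of these refits could not turn a direction, because they leave the difference between group means unchanged. These are the other filters, the fits of only the 2 groups compared or without the trend, the blocks, and leaving out a library of the group not compared. The count of 543 therefore overstates how far directions held. The replicate block over the 6 ThTC and GFP-TC libraries called 8 genes, none of the set, against 0 without it, and the block over 9 libraries called 1 gene between GFP-TC and sECM only libraries; blocks changed no other call. The brain tissue covariate called 2 genes between ThTC and sECM only and 1 between GFP-TC and sECM only, and leaving out libraries called 0 to 1 in each of these comparisons. The leukocyte covariate, added after the data were seen, gave medians of 0.10 for ThTC against GFP-TC and 0.33 for ThTC against sECM only. It turned Ly6c2 (-0.27), Cd14 (-0.12) and Itgam (-0.44) for ThTC against GFP-TC, and Adgre1 (-0.29) and Itgam (-0.23) for ThTC against sECM only. For GFP-TC against sECM only, Lyz2 (-0.067) and Itgam (-0.0012) turned under median-of-ratios scaling, Cd14 (-0.011) under quantile scaling, and Lyz2 (-0.019) and Itgam (-0.040) under the brain tissue covariate. The cause was not tested.

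Leaving out each library gave, for ThTC against GFP-TC, ranges of -0.14 to 0.71 for Ly6c2, -0.14 to 0.65 for Itgam, 0.080 to 1.13 for Chil3, 0.049 to 0.48 for Cd14, 0.21 to 0.90 for Adgre1, 0.25 to 0.95 for Cd68, 0.29 to 0.88 for Msr1, 0.37 to 0.81 for Plac8, 0.70 to 1.26 for Lyz2 and -0.0864 to 0.00663 for Cd163. For GFP-TC against sECM only the ranges were -0.39 to 0.28 for Cd68, -0.18 to 0.22 for Lyz2, -0.14 to 0.31 for Cd14, -0.26 to 0.53 for Itgam, -0.052 to 0.39 for Plac8 and -0.39 to 0.67 for Chil3. Counts of genes without overlap, higher, ranged from 2 to 5 of 9 for ThTC against GFP-TC (3.17% to 6.96% of all genes) and from 0 to 4 of 9 for GFP-TC against sECM only (4.58% to 31.7% of all genes), where genes with a higher mean ranged from 3 to 8. These counts were added after the data were seen. Cd163 lay below the filter and has no value under covariates, blocks or quantile scaling. With 3 libraries a group and unknown depth, a p that misses the threshold does not show that levels were alike.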
